A study of Homo sapiens with 8 samples.

Results

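The genes described here are 47 type I interferon response genes, a hand-written list of transcripts that cells are known to raise when interferon alpha or beta binds its receptor. Members were taken by gene name from a count table of 33045 names, on the condition of at least 10 reads in some library. All 47 met it, among 16695 names that did, and IRF9 was found under its older symbol ISGF3G. The cells were KASUMI-1, an acute myeloid leukemia line with the RUNX1::RUNX1T1 fusion that the study called sensitive to inhibition of the histone demethylase LSD1, and THP-1, a monocytic leukemia line with a KMT2A fusion that it called resistant. Each line received DDP38003, an LSD1 inhibitor (LSD1i), at 0.5 µM, or vehicle. KASUMI-1 was sampled at 6 and 72 h and THP-1 at 24 and 72 h, which the study chose as the first and last times with a secondary effect on mTOR. The 8 groups held 1 library each, namely KASUMI-1 with LSD1i and with vehicle at both of its times, then THP-1 with LSD1i and with vehicle at both of its times, and an LSD1i library was set against the vehicle library of its line and time. Separate cultures are not mentioned in the labels, and a p-value here reflects spread among these libraries alone. In the main test of LSD1i responses that spread is the difference in response between the times of a line, which stand in for replicates. For vehicle levels it is the difference between the times under vehicle. A change with time cannot be told apart in it from spread between cultures or technical spread. In bulk samples fewer cells of a type and less RNA per cell cannot be told apart.

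Type I interferons signal through the receptor chains IFNAR1 and IFNAR2 and the kinases JAK1 and TYK2 to a complex that holds STAT2 and IRF9 and binds the interferon-stimulated response element in promoters. Interferon gamma acts at another element, the gamma-activated site, and genes such as IRF1 and the guanylate-binding proteins answer strongly to it. The induced proteins sense viral RNA, block translation or entry, or attach the ubiquitin-like protein ISG15 to other proteins. In myeloid cells several of them also carry a resting level without infection.

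Promoter windows of the members were searched for the letters of these elements. The members were listed as genes that interferon raises, so shares above those of all windows describe the list and not the LSD1i response. RefSeq windows on GRCh38.p14, from 250 bases before to 50 bases after the annotated start, were at hand for 38 of the 47 members. The letters GAAA, any 2 bases and GAAA again, the core of the interferon-stimulated response element (ISRE core), were searched on both strands and stood in 24 of the 38 windows (63.2%), against 1255 of all 35116 windows (3.57%). The letters TTCNNNGAA, the core of the gamma-activated site, which read alike on both strands, stood in 9 member windows (23.7%), against 2689 of all windows (7.66%). Among members that passed the test below in either line, 8 of 14 windows held the ISRE core and 4 held TTCNNNGAA, against 16 and 5 of the 24 windows of members that passed it in neither. The windows below are of 4 members with the ISRE core and of 2 without it, in each case those of lowest p among called members with a window, with the matched letters of either motif in capitals. The HERC5 window lies at chr4:88456869-88457168 on the plus strand, GBP1 at chr1:89065159-89065458 on the minus strand, IFIT5 at chr10:89414318-89414617 on the plus strand and PARP14 at chr3:122680589-122680888 on the plus strand. The OAS1 window lies at chr12:112906712-112907011 on the plus strand and IRF1 at chr5:132490724-132491023 on the minus strand. Each is printed 5′ to 3′ in the direction of its gene.
HERC5: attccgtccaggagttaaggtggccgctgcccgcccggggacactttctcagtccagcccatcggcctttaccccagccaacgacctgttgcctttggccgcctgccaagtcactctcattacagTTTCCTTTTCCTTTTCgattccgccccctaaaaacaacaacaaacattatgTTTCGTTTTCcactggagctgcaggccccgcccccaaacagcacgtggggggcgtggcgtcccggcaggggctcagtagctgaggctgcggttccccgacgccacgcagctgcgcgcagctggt
GBP1: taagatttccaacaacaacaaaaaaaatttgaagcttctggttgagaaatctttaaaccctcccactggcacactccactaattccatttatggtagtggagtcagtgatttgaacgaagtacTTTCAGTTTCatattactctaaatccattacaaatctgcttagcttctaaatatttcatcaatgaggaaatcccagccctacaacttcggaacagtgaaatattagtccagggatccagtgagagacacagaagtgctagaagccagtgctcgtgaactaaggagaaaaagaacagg
IFIT5: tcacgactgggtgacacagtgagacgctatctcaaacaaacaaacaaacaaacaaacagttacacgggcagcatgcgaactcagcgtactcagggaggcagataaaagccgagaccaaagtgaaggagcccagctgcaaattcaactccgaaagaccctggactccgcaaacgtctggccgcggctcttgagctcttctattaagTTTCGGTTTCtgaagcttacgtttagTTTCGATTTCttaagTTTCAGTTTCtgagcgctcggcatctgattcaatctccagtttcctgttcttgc
PARP14: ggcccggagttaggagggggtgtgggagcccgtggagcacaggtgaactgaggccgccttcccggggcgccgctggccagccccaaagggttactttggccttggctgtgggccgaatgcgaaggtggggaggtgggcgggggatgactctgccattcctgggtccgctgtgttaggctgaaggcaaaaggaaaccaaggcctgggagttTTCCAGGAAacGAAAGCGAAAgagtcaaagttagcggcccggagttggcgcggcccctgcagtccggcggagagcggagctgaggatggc
OAS1: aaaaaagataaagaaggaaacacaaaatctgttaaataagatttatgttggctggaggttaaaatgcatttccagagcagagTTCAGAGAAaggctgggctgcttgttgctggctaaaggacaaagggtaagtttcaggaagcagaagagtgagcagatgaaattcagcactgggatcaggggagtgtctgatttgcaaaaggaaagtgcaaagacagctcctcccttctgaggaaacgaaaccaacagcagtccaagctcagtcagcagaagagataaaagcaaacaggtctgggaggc
IRF1: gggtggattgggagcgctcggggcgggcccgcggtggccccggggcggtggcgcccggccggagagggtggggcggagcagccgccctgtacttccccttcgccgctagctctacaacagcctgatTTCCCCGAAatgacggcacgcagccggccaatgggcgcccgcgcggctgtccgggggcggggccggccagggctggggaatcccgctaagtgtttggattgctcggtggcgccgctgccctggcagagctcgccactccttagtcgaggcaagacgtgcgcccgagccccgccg
HERC5 and IFIT5 each hold 3 copies of the response element core, all on the strand opposite to the gene, while GBP1 and PARP14 hold 1 each, in PARP14 along the gene. In HERC5 a pair of copies overlap. PARP14 also has the gamma-activated core just before its copy, and OAS1 and IRF1 have that core without the other. A match is a description of letters, not of a site in use, and a window without a match may still hold a variant of the element. The OAS1 window has gaaacgaaa, with 1 base between the GAAA letters, which the search did not take.

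Counted reads per library ran between 23722972 (KASUMI-1 vehicle 72 h) and 45970766 (KASUMI-1 LSD1i 72 h). These extremes belong to the same pair, and the part of depth in the results was not tested. Levels are given as CPM, the read count scaled to library size by the TMM method, and as RPKM, the CPM per kilobase of exon, where genes are compared with each other. Line markers matched the labels: RUNX1T1, present in the KASUMI-1 fusion, had 1850 to 4344 reads in KASUMI-1 libraries against 5 to 9 in THP-1 libraries, and HOXA9 had 29 to 62 against 1883 to 2662. MEIS1, listed as a THP-1 marker, had 1 to 5 reads in both lines. The monocyte genes LYZ, CSF1R and ITGAM moved with the inhibitor: LYZ rose by 2.82 in KASUMI-1 and 3.42 in THP-1 on the log2 scale, CSF1R by 1.04 and 1.14, and ITGAM by 1.36 and 2.74. The summed level of the 5 listed THP-1 markers was 149.5 to 427 CPM in KASUMI-1 LSD1i libraries against 37.0 to 43.7 CPM in KASUMI-1 vehicle libraries, and 5041 to 11280 CPM against 629.7 to 982 CPM in THP-1. Their part in the changes below was not tested. The red cell markers HBB and HBG1 and the NK marker KLRD1 were at 0 reads in every library, as were COL1A2 and DCN of fibroblasts. Other listed markers of such cell types had reads. The NK markers NCAM1 and NKG7 had 801 and 1032 reads over the THP-1 LSD1i libraries and 1004 and 843 over its vehicle libraries. In KASUMI-1 the B cell marker CD79A had 359 reads with LSD1i and 293 with vehicle, and the T cell marker CD3D 127 and 114. LSD1 itself, listed as AOF2, kept 3310 to 9189 reads in all libraries, and as the agent blocks the enzyme this does not check the labels.

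The first question was which of the 47 genes LSD1 inhibition changed in each line. In KASUMI-1 9 members rose and 2 fell at an adjusted p under 0.05 by edgeR's quasi-likelihood test, where 7.02% of all 16060 genes tested rose and 5.09% fell (12.1% in either direction). GBP2, TRIM22, IRF1, PARP14, SAMD9, SAMD9L, HERC5, DDX58 and STAT2 rose, and OASL and ISG15 fell. In THP-1 12 members rose, where 6.51% of all genes rose and 2.85% fell (9.36% in either direction): GBP1, GBP2, HERC5, TRIM22, OAS1, IFIT5, OASL, IFIT1, IRF7, OAS2, IFI35 and IFI6. No member fell there by edgeR or by DESeq2, and 1 was lower at an unadjusted p under 0.05 by edgeR. The share of all genes at that unadjusted threshold was not worked out, here or below, so such counts describe the listed genes alone. The median response of the 47 was 0.35 on the log2 scale in KASUMI-1 and 0.34 in THP-1, against 0.02 and -0.01 over all genes tested. Of the 47, 33 had a positive fitted value in each line. HERC5, TRIM22 and GBP2 rose in both lines, and 28 members passed the test in neither. How many of all genes rose in both lines or passed in neither was not worked out, so these counts stand without a comparison.

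**Figure D1:**
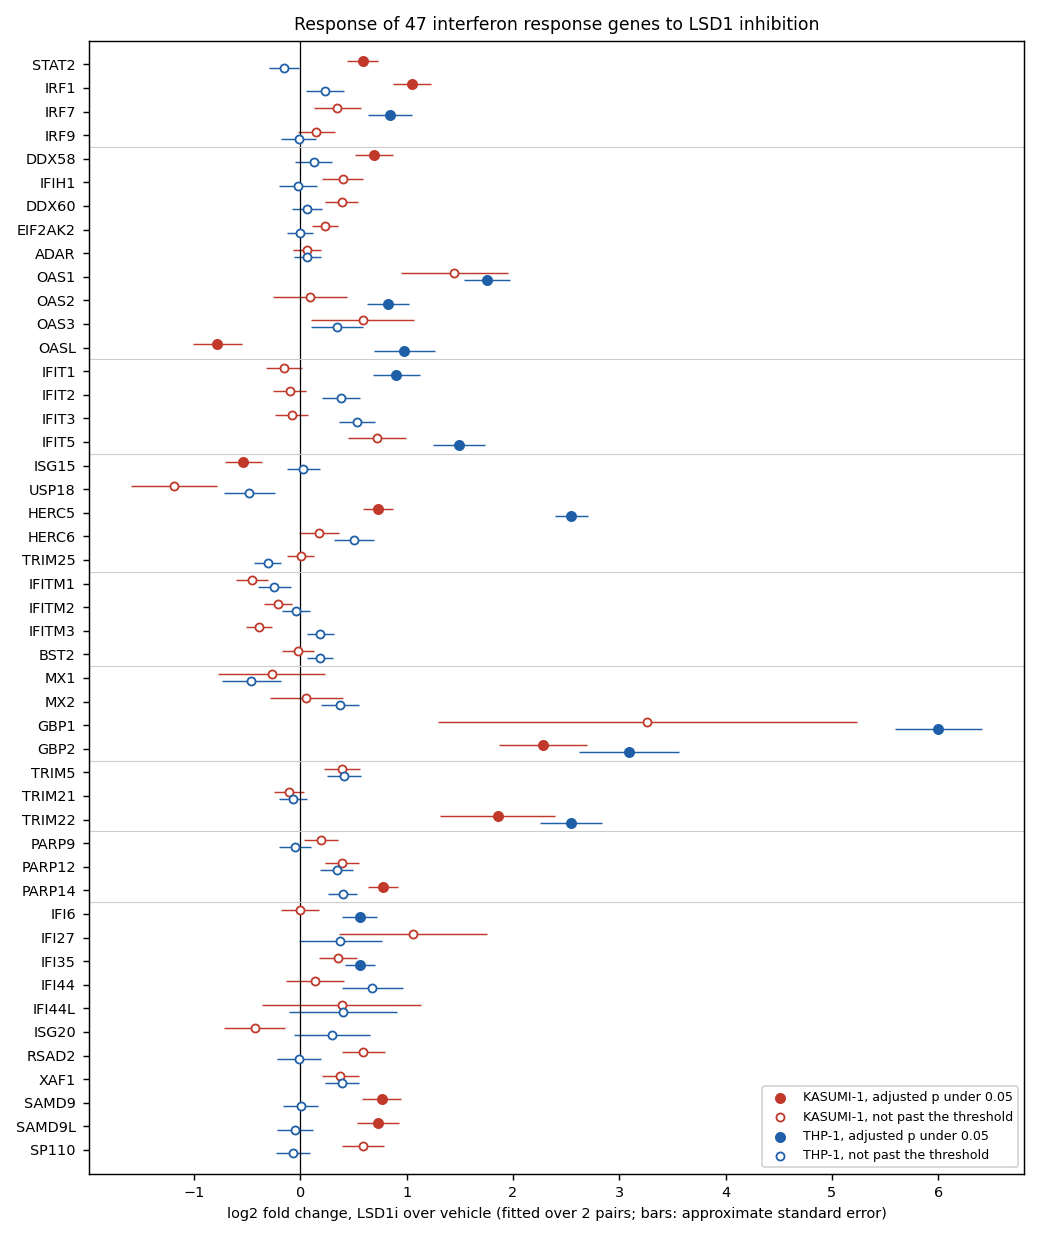
Fitted log2 fold change of LSD1i over vehicle (x axis) for each of the 47 genes (y axis, grouped by role), with KASUMI-1 in red above THP-1 in blue. Filled points passed edgeR's quasi-likelihood test at an adjusted p under 0.05, and bars are approximate standard errors. The 11 called members of KASUMI-1 and the 12 of THP-1 overlap in HERC5, TRIM22, GBP2 and OASL, and OASL has opposite signs.

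These counts rest on 2 pairs a line. In KASUMI-1 fewer members and fewer of all genes were called without the 72 h pair, and more of both when the 6 h pair was left out. In THP-1 fewer of both were called without either of its pairs. When the term for the pair was dropped, edgeR called 0 members in KASUMI-1, where 100 of all genes were called. There 13 members were at an unadjusted p under 0.05. In THP-1 it called 6 members, where 454 of all genes were called. DESeq2 called 7 members in KASUMI-1 and 8 in THP-1, where 1603 and 990 of all genes were called. The 1128 genes called higher and 817 called lower in KASUMI-1 were 993 and 1001 with RLE scaling and 720 and 883 with DESeq2, and the 9 members higher and 2 lower were 9 and 4 with RLE and 6 and 1 with DESeq2. Without a model, 20 members had both LSD1i libraries above both vehicle libraries in KASUMI-1 and 4 had both below, where 24.4% and 19.9% of all genes tested did. In THP-1 24 were above and 4 below, where 21.2% and 22% of all genes were.

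Of the 4 transcription factors 2 rose in KASUMI-1, where 7.02% of all genes did, and 1 in THP-1, where 6.51% did. IRF1, an activator of interferon and antigen-presentation genes, had 45.7 and 71.7 CPM in KASUMI-1 LSD1i libraries (6 and 72 h), against 30.9 and 24.4 CPM in vehicle libraries. Both treated libraries lay above both controls, and the fitted rise was 1.05 ± 0.18 in log2 units (adjusted p = 0.00152 by edgeR's quasi-likelihood test). Here and below a value after ± is an approximate standard error. In THP-1 IRF1 stood at 32.3 and 31.0 CPM with LSD1i (24 and 72 h) and 24.9 and 29.0 CPM with vehicle, a change of 0.23 ± 0.18 that did not pass. STAT2, the activating subunit of the interferon-induced complex, had 28.3 and 38.5 CPM in KASUMI-1 LSD1i libraries against 21.9 and 21.9 CPM in vehicle libraries. It rose by 0.59 ± 0.14 there (adjusted p = 0.0141, edgeR). In THP-1 STAT2 had 21.0 and 32.9 CPM with LSD1i and 23.7 and 36 CPM with vehicle, with the 72 h libraries of both agents above the 24 h ones. IRF7, the amplifier of interferon alpha production, passed in THP-1 and not in KASUMI-1. In THP-1 it had 7.24 and 5.79 CPM with LSD1i against 3.51 and 3.75 CPM with vehicle, a rise of 0.84 ± 0.21 (adjusted p = 0.0125, edgeR) without overlap. Its KASUMI-1 libraries held 3.94 and 4.41 CPM with LSD1i and 3.54 and 2.98 CPM with vehicle (0.35 ± 0.22, not passed). IRF9, the DNA-binding subunit of the same complex, did not pass in either line: 7.91 and 5.75 CPM in KASUMI-1 with LSD1i against 7.19 and 5.12 CPM with vehicle, and 13 and 12.9 CPM against 11.4 and 15.1 CPM in THP-1. Its gene model shares 1732 of 4798 exon bases with RNF31, so its reads cannot be fully told from that gene's. Without the KASUMI-1 72 h pair the calls of IRF1 (0.56) and STAT2 (0.37) ended, and without either THP-1 pair that of IRF7 (0.60 without 24 h and 1.03 without 72 h), which DESeq2 did not call.

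**Figure D2:**
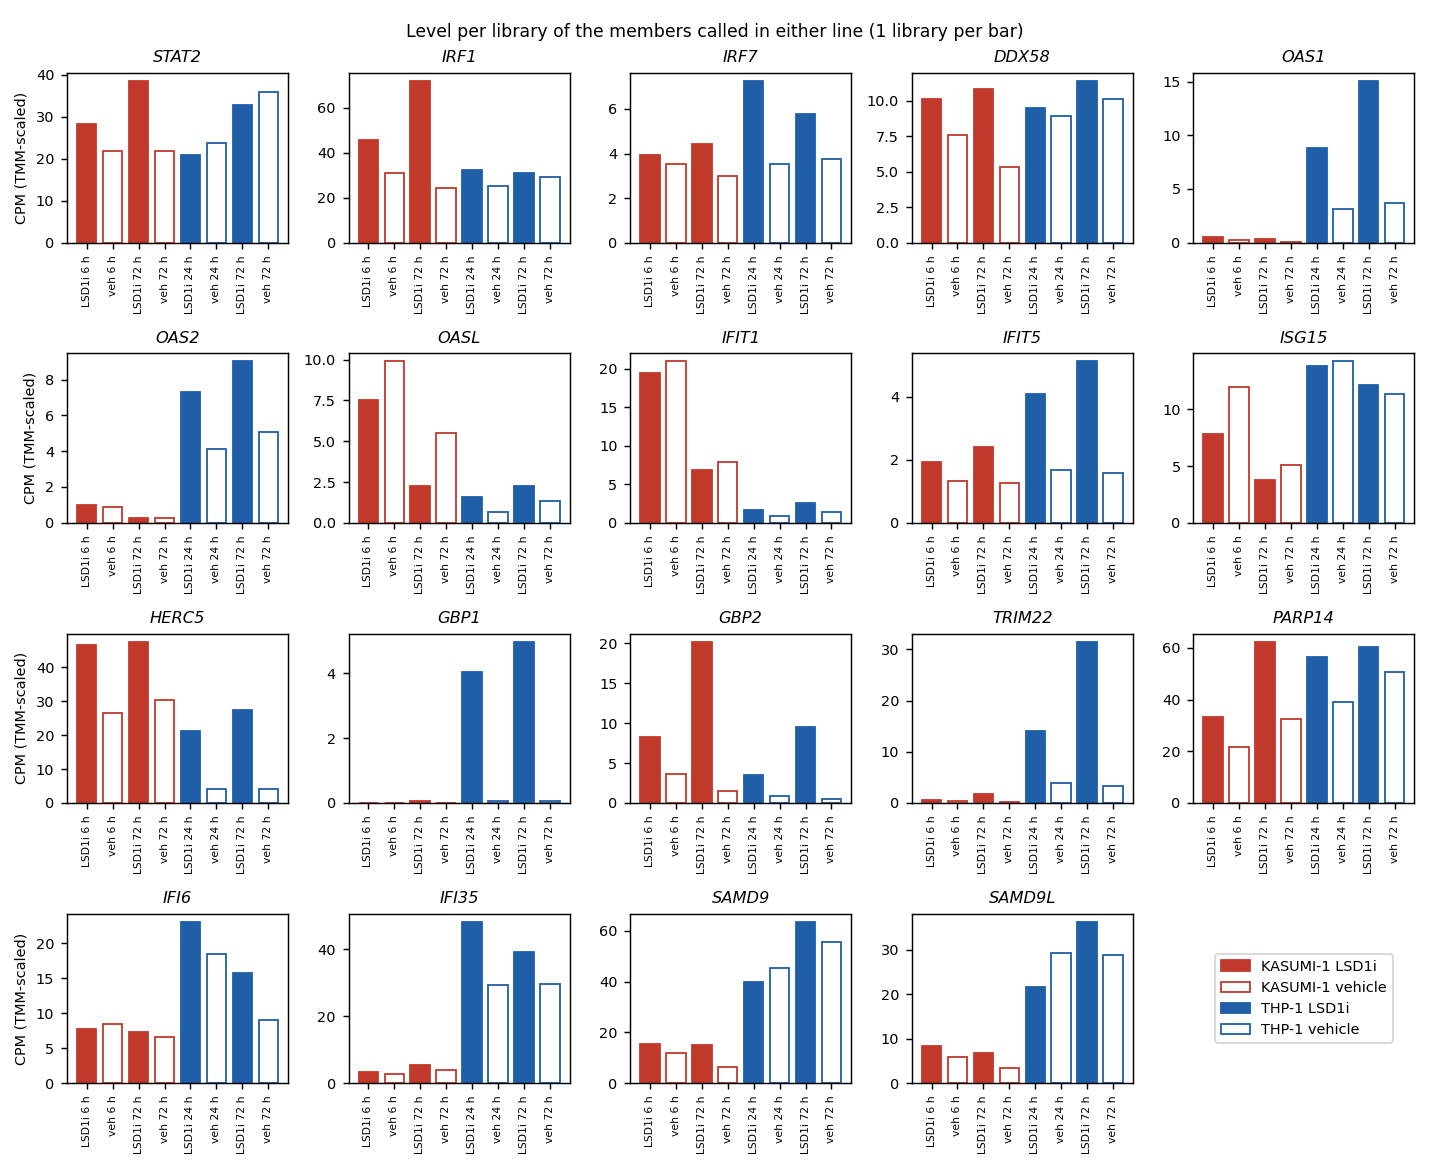
Level in CPM (y axis, linear from 0, own scale per gene) of the 19 members called in either line, 1 bar per library. Filled bars are LSD1i and open bars vehicle (veh), with KASUMI-1 in red left of THP-1 in blue. HERC5 is above its vehicle library in all 4 pairs, while OASL is below it in both KASUMI-1 pairs and above it in both THP-1 pairs.

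Among 9 RNA sensors and enzymes of double-stranded RNA, 1 rose and 1 fell in KASUMI-1, where 7.02% of all genes rose and 5.09% fell, and 3 rose in THP-1, where 6.51% did. DDX58 encodes RIG-I, the sensor of viral RNA ends. It had 10.1 and 10.8 CPM in KASUMI-1 LSD1i libraries against 7.61 and 5.34 CPM in vehicle libraries, a rise of 0.69 ± 0.18 (adjusted p = 0.0205, edgeR). Its THP-1 libraries ran from 8.93 to 11.4 CPM, with a fitted 0.13 ± 0.17. OAS1, a synthetase that activates RNase L, had 8.83 and 15.0 CPM in THP-1 LSD1i libraries against 3.15 and 3.71 CPM in vehicle libraries. That rise of 1.75 ± 0.22 (adjusted p = 2.18e-05, edgeR) came with a wide gap between the agents at both times. In KASUMI-1 OAS1 was close to silent, with 22 and 14 reads in LSD1i libraries and 10 and 1 reads in vehicle libraries, and its 1.45 ± 0.51 missed the threshold (adjusted p = 0.0705, edgeR). OAS2, its neighbour with the same activity, had 7.31 and 9.01 CPM in THP-1 LSD1i libraries against 4.14 and 5.08 CPM in vehicle libraries (0.82 ± 0.20, adjusted p = 0.0105, edgeR). It had 38 and 10 reads in KASUMI-1 with LSD1i and 33 and 6 with vehicle (0.09 ± 0.35). OASL, a family member without the synthetase activity that binds RIG-I, had calls of opposite sign in the lines by edgeR and none by DESeq2. With LSD1i it had 7.56 and 2.27 CPM in KASUMI-1, against 9.89 and 5.52 CPM with vehicle, so each treated library was below its own control although the groups overlapped. The fitted change was -0.78 ± 0.23 (adjusted p = 0.0388, edgeR). In THP-1 OASL had 1.61 and 2.23 CPM with LSD1i against 0.673 and 1.33 CPM with vehicle, a rise of 0.98 ± 0.29 (adjusted p = 0.0373, edgeR). The abundant members of the group moved little: ADAR, the RNA-editing enzyme, had fitted changes of 0.06 ± 0.13 in KASUMI-1 and 0.07 ± 0.13 in THP-1, and EIF2AK2, the kinase PKR, 0.23 ± 0.12 and 0.00 ± 0.12. DDX60, a helicase that promotes RIG-I signalling, gave 0.39 ± 0.16 and 0.06 ± 0.14, and IFIH1, the sensor MDA5, 0.40 ± 0.19 and -0.02 ± 0.18. OAS3 passed in neither line. Calls of DDX58 (0.40) and of OASL in KASUMI-1 (-0.39) ended without the KASUMI-1 72 h pair, and that of OASL in KASUMI-1 also without either THP-1 pair (-0.80 each). OAS2 (0.80 and 0.81) and OASL (0.72 and 1.24) lost their THP-1 calls when the 24 h or the 72 h pair was left out. DESeq2 did not call DDX58 (0.67) or OASL (-0.84) in KASUMI-1, nor OAS2 (0.82) or OASL (0.99) in THP-1, where a filter of 1 CPM in 2 libraries also ended the OASL call (0.97).

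The 4 IFIT genes, whose proteins bind viral RNA and block its translation, gave 2 calls. Both were rises in THP-1, where 6.51% of all genes rose. IFIT5 had 4.07 and 5.11 CPM in THP-1 LSD1i libraries against 1.66 and 1.57 CPM in vehicle libraries, a rise of 1.49 ± 0.24 (adjusted p = 3.79e-04, edgeR). In KASUMI-1 its libraries were at 1.93 and 2.39 CPM with LSD1i and 1.34 and 1.25 CPM with vehicle, without overlap, and 0.72 ± 0.27 missed the threshold (adjusted p = 0.0962, edgeR). IFIT1, the classic reporter of interferon, had 1.68 and 2.57 CPM in THP-1 LSD1i libraries against 0.841 and 1.45 CPM in vehicle libraries (0.90 ± 0.22, adjusted p = 0.0123, edgeR). KASUMI-1 held far more IFIT1, with 19.4 and 6.82 CPM under LSD1i and 20.9 and 7.88 CPM under vehicle, so that time and not agent separated the libraries. IFIT2 and IFIT3 behaved alike in KASUMI-1, with fitted changes of -0.10 ± 0.16 and -0.08 ± 0.16, and stood at 0.38 ± 0.18 and 0.53 ± 0.17 in THP-1. IFIT1 lost its call without the THP-1 24 h pair (0.80) and without the 72 h pair (0.98), and IFIT5 without the 72 h pair (1.28).

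The ISG15 system attaches a ubiquitin-like protein to others. HERC5, the ligase of this reaction, was the member with the lowest p in THP-1. It had 21.1 and 27.5 CPM in THP-1 LSD1i libraries against 4.01 and 4.23 CPM in vehicle libraries, a rise of 2.55 ± 0.16 (adjusted p = 3.67e-09, edgeR). In KASUMI-1 HERC5 had 46.5 and 47.6 CPM with LSD1i against 26.4 and 30.4 CPM with vehicle, a rise of 0.73 ± 0.14 (adjusted p = 0.00323, edgeR). The THP-1 LSD1i libraries lay below the KASUMI-1 LSD1i libraries and overlapped the KASUMI-1 vehicle ones. ISG15, the modifier itself, fell in KASUMI-1 at the edge of the threshold. It had 7.81 and 3.80 CPM with LSD1i against 12 and 5.12 CPM with vehicle (-0.53 ± 0.17, adjusted p = 0.0499, edgeR). In THP-1 ISG15 had 13.8 and 12.1 CPM with LSD1i and 14.2 and 11.3 CPM with vehicle, with a fitted 0.03 ± 0.16. USP18, the protease that removes ISG15 and dampens the receptor, gave -1.19 ± 0.40 in KASUMI-1 on 25 LSD1i and 44 vehicle reads in all and -0.48 ± 0.24 in THP-1, and passed in neither line. HERC6, a paralog of HERC5, and TRIM25, an E3 ligase that activates RIG-I, did not pass in either line. HERC5 kept both calls without any single pair, whereas the ISG15 call ended without any one of the 4 pairs (-0.62 to -0.42) and under both other filters on low counts and DESeq2.

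The large GTPases held the widest changes. GBP1, a guanylate-binding protein that coats intracellular pathogens, had 181 and 176 reads in THP-1 LSD1i libraries against 3 and 3 reads in vehicle libraries. The ratio of the summed reads, scaled by depth, was 66.6 with a 95% counting interval of 30.3 to 183. Such intervals leave out all but counting error, and reads counted without molecular identifiers can be copies of one molecule. The fitted change was 6.00 ± 0.41 (adjusted p = 3.22e-08, edgeR) and depends on the prior count. In KASUMI-1 GBP1 had 0 and 3 reads with LSD1i and 0 and 0 with vehicle, so no fold is given. GBP2, its neighbour 42.4 kb away, rose in both lines. In KASUMI-1 it had 8.32 and 20.2 CPM with LSD1i against 3.60 and 1.56 CPM with vehicle (2.28 ± 0.41, adjusted p = 0.00224, edgeR). In THP-1 GBP2 had 3.44 and 9.49 CPM with LSD1i against 0.820 and 0.523 CPM with vehicle (3.09 ± 0.47, adjusted p = 2.03e-04, edgeR). In each line the LSD1i library was higher at 72 h than at the earlier time, and the vehicle library was not. MX1 and MX2, the dynamin-like inhibitors of virus entry and replication, did not pass: MX1 gave -0.27 ± 0.50 in KASUMI-1 and -0.46 ± 0.28 in THP-1, and MX2 0.06 ± 0.35 and 0.37 ± 0.18. GBP2 stood at 1.21 in KASUMI-1 from the 6 h pair alone and at 3.70 from the 72 h pair alone, called in both. In THP-1 it stood at 2.05, no longer called, when the 72 h pair was left out, and at 4.15 when the 24 h pair was. DESeq2 did not call GBP2 in KASUMI-1 (2.41).

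Of the TRIM restriction factors TRIM22, a nuclear inhibitor of viral transcription, rose in both lines. It had 13.9 and 31.5 CPM in THP-1 LSD1i libraries against 3.95 and 3.23 CPM in vehicle libraries (2.54 ± 0.29, adjusted p = 9.42e-06, edgeR). In KASUMI-1 TRIM22 had 25 and 73 reads with LSD1i against 14 and 4 reads with vehicle (1.86 ± 0.54, adjusted p = 0.0334, edgeR). The KASUMI-1 value rests on few reads, and it stood at 0.78, no longer called, without the 72 h pair and at 3.30 when the 6 h pair was left out. DESeq2 did not call it (1.94). In THP-1 it stood at 3.26 when the 24 h pair was left out and at 1.80 when the 72 h pair was, called in both. TRIM5, the capsid-binding factor at the same locus, gave 0.39 ± 0.17 and 0.41 ± 0.16 and passed in neither line, as did TRIM21, the cytosolic antibody receptor.

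PARP14, a mono-ADP-ribosyltransferase, had 33.1 and 62.5 CPM in KASUMI-1 LSD1i libraries against 21.7 and 32.5 CPM in vehicle libraries (0.78 ± 0.14, adjusted p = 0.00196, edgeR). THP-1 held 56.6 and 60.5 CPM with LSD1i and 38.9 and 50.7 CPM with vehicle, without overlap, and 0.40 ± 0.13 missed the threshold (adjusted p = 0.0777, edgeR). PARP9 and PARP12 passed in neither line. SAMD9, a restrictor of poxvirus translation, had 15.6 and 14.9 CPM in KASUMI-1 LSD1i libraries against 12 and 6.41 CPM in vehicle libraries (0.77 ± 0.18, adjusted p = 0.0116, edgeR). Its adjacent paralog SAMD9L had 8.37 and 6.77 CPM with LSD1i against 5.77 and 3.43 CPM with vehicle (0.73 ± 0.20, adjusted p = 0.0256, edgeR). In THP-1 SAMD9 had 39.7 and 63.5 CPM with LSD1i and 45.5 and 55.4 CPM with vehicle (0.00 ± 0.16). SAMD9L had 21.8 and 36.4 CPM there with LSD1i and 29.4 and 29.0 CPM with vehicle (-0.05 ± 0.17), so neither separated the agents. IFI35, a partner of NMI, had 48.3 and 39.1 CPM in THP-1 LSD1i libraries against 29.3 and 29.6 CPM in vehicle libraries (0.56 ± 0.14, adjusted p = 0.0147, edgeR). Its KASUMI-1 libraries had 3.33 and 5.31 CPM with LSD1i and 2.70 and 4.01 CPM with vehicle (0.35 ± 0.18). IFI6, a small membrane protein that limits flavivirus replication, had 23.1 and 15.8 CPM with LSD1i against 18.4 and 9.03 CPM with vehicle in THP-1, with overlap between the times (0.56 ± 0.16, adjusted p = 0.0363, edgeR). In KASUMI-1 IFI6 had 7.71 and 7.26 CPM with LSD1i and 8.40 and 6.63 CPM with vehicle. XAF1, an antagonist of the apoptosis inhibitor XIAP, gave 0.38 ± 0.17 in KASUMI-1 and 0.39 ± 0.16 in THP-1 and passed in neither line. RSAD2, SP110, ISG20, IFI27, IFI44 and IFI44L passed in neither line. Without the KASUMI-1 72 h pair the calls of PARP14 (0.61), SAMD9 (0.38) and SAMD9L (0.53) ended. Those of IFI35 (0.38 and 0.71) and IFI6 (0.79 and 0.31) ended when the THP-1 24 h or the 72 h pair was left out, and that of IFI6 also with DESeq2 (0.56).

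The membrane restriction factors IFITM1, IFITM2, IFITM3 and BST2 block virus entry or tether virions. They gave no call by edgeR in KASUMI-1, where 12.1% of all genes were called, or in THP-1, where 9.36% were. Those shares are at the adjusted threshold. At an unadjusted p under 0.05, without a share of all genes, edgeR had 2 lower in KASUMI-1 and 0 in THP-1. DESeq2 called 1 lower in KASUMI-1. IFITM3 had 59.7 and 60.8 CPM in KASUMI-1 LSD1i libraries against 73.7 and 84.6 CPM in vehicle libraries (-0.39 ± 0.12, adjusted p = 0.0503, edgeR). IFITM1 gave -0.46 ± 0.15 (adjusted p = 0.053, edgeR) with the treated libraries also below both controls.

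Members that lie side by side can be compared by their values. SAMD9 and SAMD9L, 12 kb apart on chromosome 7, both rose in KASUMI-1, and neither passed in THP-1. GBP1 and GBP2 on chromosome 1 both rose in THP-1. On chromosome 4 HERC5 rose in both lines, while HERC6, 14 kb away, gave 0.17 ± 0.19 in KASUMI-1 and 0.50 ± 0.19 in THP-1 without passing. On chromosome 10 IFIT1 and IFIT5, 10.7 kb apart, rose in THP-1, and IFIT2 and IFIT3 had positive values that did not pass. OAS1 and OAS2 on chromosome 12 rose in THP-1, and OAS3, which lies between them, gave 0.35 ± 0.25. Distances are those of the deposited NCBI36 gene models, and differences between neighbours were not tested.

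Single pairs show the time course, as a description without a test. A member was counted when the LSD1i and vehicle libraries were at least 2-fold apart, the 95% counting interval excluded equality and the pair averaged at least 2 CPM. At 6 h in KASUMI-1 1 of 35 members at that level was higher, GBP2 at 2.31-fold (counting interval 1.89 to 2.85), where 0.785% of genes were, and 0 were lower (0.0274% of genes). At 72 h 5 were higher and 1 lower of 34, where 3.36% of genes were higher and 1.02% lower. GBP2 was then 13-fold higher (9.26 to 18.8), IRF1 2.93-fold (2.68 to 3.22), SAMD9 2.33-fold (1.94 to 2.81), RSAD2, the antiviral enzyme viperin, 2.15-fold (1.77 to 2.64) and DDX58 2.02-fold (1.65 to 2.49). OASL was at 0.410 of its vehicle level (0.310 to 0.541). In THP-1 7 of 40 members were higher at 24 h, where 2.77% of genes were, and 6 of 42 at 72 h, where 3.25% were. None was lower by this rule in THP-1, where 0.418% of genes were at 24 h and 1.35% at 72 h. GBP1, GBP2, HERC5, TRIM22, OAS1 and IFIT5 were higher at both times and IRF7 at 24 h (2.06-fold, 1.71 to 2.50). Between 24 and 72 h the HERC5 ratio stood at 5.27 (4.50 to 6.19) and 6.51 (5.55 to 7.69), that of TRIM22 at 3.53 (2.99 to 4.18) and 9.75 (8.15 to 11.7), and that of OAS1 at 2.80 (2.32 to 3.40) and 4.05 (3.39 to 4.88). The intervals of TRIM22 do not overlap between the times, and those of HERC5 and OAS1 do. With 1 library a group these intervals hold counting error alone, and a change of the ratio between the times was not tested.

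**Figure D3:**
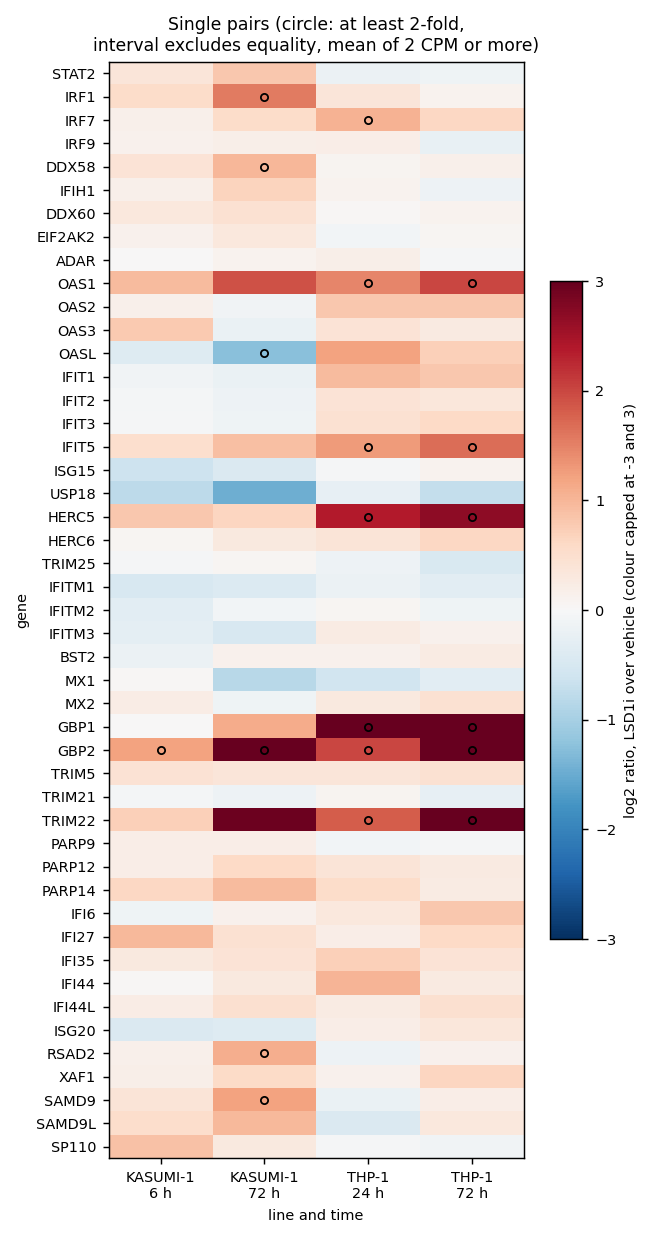
Log2 ratio of LSD1i over vehicle (colour, with a prior count of 2 and capped at -3 and 3) for each of the 47 genes (rows) in the 4 pairs (columns). Circles mark ratios of at least 2-fold whose counting interval excludes equality at a mean of 2 CPM or more: 1 and 6 in KASUMI-1 at 6 and 72 h, and 7 and 6 in THP-1 at 24 and 72 h.

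A second question was whether the lines responded differently, tested as the KASUMI-1 response minus the THP-1 response. By edgeR's quasi-likelihood test 1 member differed upward and 3 downward, where 2.62% and 3.07% of all genes did (5.69% in either direction). The HERC5 difference was -1.82 ± 0.21 on the log2 scale (adjusted p = 5.91e-05), with the rise larger in THP-1. OASL differed by -1.76 ± 0.37 (adjusted p = 0.0103, edgeR), falling in KASUMI-1 and rising in THP-1. IFIT1 differed by -1.06 ± 0.28 (adjusted p = 0.034, edgeR), and STAT2, which rose in KASUMI-1, by 0.74 ± 0.20 (adjusted p = 0.0397, edgeR). IRF1 missed the threshold with 0.81 ± 0.25 (adjusted p = 0.0668, edgeR), as did SAMD9 with 0.76 ± 0.24 and IFITM3 with -0.58 ± 0.18. Of the members called in a single line, IFIT1 and STAT2 are the ones shown to differ between lines. The times also differ between lines (6 or 24 h for the first), and line and early time cannot be told apart. HERC5 differed without any single pair (-1.96 to -1.67), and it alone was called without either THP-1 pair or without the pair term. Without the THP-1 24 h and 72 h pairs OASL was at -1.52 and -2.04, IFIT1 at -0.97 and -1.15 and STAT2 at 0.73 and 0.76, and STAT2 was at 0.52 without the KASUMI-1 72 h pair, all no longer called. Without the KASUMI-1 6 h pair more members differed, and more of all genes did too. DESeq2 called 2 members, HERC5 and OASL, and not IFIT1 (-1.09) or STAT2 (0.71), and over all genes 296 higher and 566 lower, against 421 and 493 by edgeR.

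Starting levels were compared between the lines in a separate fit of the vehicle libraries, without a pair term. Line and early time (6 h in KASUMI-1 and 24 h in THP-1) cannot be told apart in it. In vehicle libraries 11 of 45 members tested were higher in KASUMI-1 than in THP-1 and 23 were lower, by edgeR's quasi-likelihood test on 2 libraries a line. These are 24.4% and 51.1% of the members tested. Of all 15456 genes tested 26.4% were higher and 30.1% lower (56.5% in either direction). The median over the members was -0.67 on the log2 scale, against 0.00 over all genes. Of the IFIT genes 3 of 4 were higher in KASUMI-1, and IFIT5 was not called (-0.32 ± 0.30). IFIT1 was 3.67 ± 0.46 higher, OASL 2.96 ± 0.39, HERC5 2.78 ± 0.21, IFIT2 2.62 ± 0.38 and IFIT3 2.08 ± 0.34. On the THP-1 side OAS1 was 4.26 lower in KASUMI-1 (-4.26 ± 0.47), BST2, the tetherin that holds virions at the surface, -4.07 ± 0.20, MX2 -3.97 ± 0.30, TRIM22 -3.62 ± 0.39 and OAS3 -3.26 ± 0.40. Per length, IFITM3 was the most abundant member in KASUMI-1 vehicle libraries (142 RPKM at 72 h and 123 at 6 h), and BST2 in THP-1 vehicle libraries (108 RPKM at 72 h and 128 at 24 h). STAT2, IRF1 and IRF7 did not differ beyond the threshold, with -0.45 ± 0.22, 0.04 ± 0.19 and -0.15 ± 0.25, and IRF9 was lower in KASUMI-1 (-1.10 ± 0.25). GBP1 and IFI44L had too few vehicle reads to be tested. IFI44 was called higher at 1.44 ± 0.54, but it stood at -0.043 without the KASUMI-1 6 h vehicle library. Without that library IFIT1 was at 2.79, IFIT2 at 1.85, IFIT3 at 1.45, OAS1 at -6.16 and TRIM22 at -4.31, all called, and HERC5 (2.88) was then above IFIT1. Without the THP-1 24 h vehicle library the calls of IFI6 (-0.28), IFI27 (-1.39), TRIM5 (-0.76) and PARP9 (-0.68) ended. DESeq2 did not call IFI27 (-2.38). Without the KASUMI-1 6 h vehicle library those of EIF2AK2 (0.46), TRIM5 (-0.55) and PARP14 (-0.46) ended. Without the THP-1 72 h vehicle library those of EIF2AK2 (0.58), TRIM5 (-0.66), PARP9 (-0.73), PARP14 (-0.56) and IFITM2 (-0.55) ended.

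**Figure D4:**
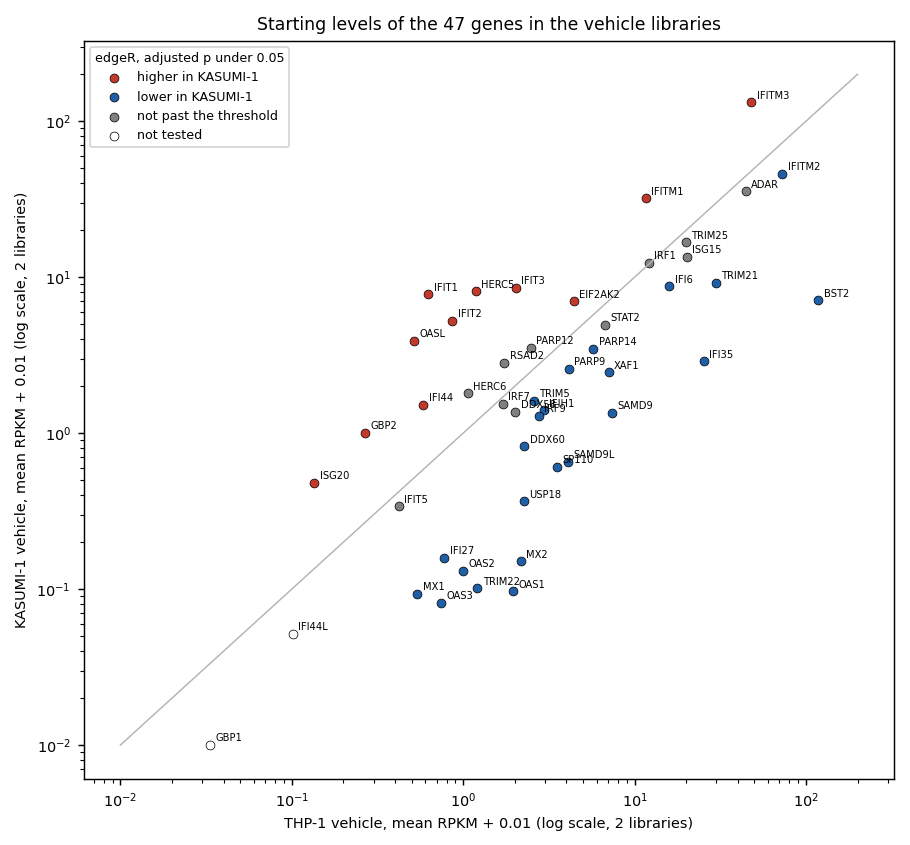
Mean RPKM plus 0.01 over 2 vehicle libraries in KASUMI-1 (y axis) and THP-1 (x axis), both on log scales, with 1 point per gene and the line of equality in grey. Red points, 11 genes such as IFIT1 and HERC5, were higher in KASUMI-1 by edgeR at an adjusted p under 0.05, and blue points, 23 genes such as BST2 and OAS1, were lower.

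Levels also differed between times under the same agent, which is described here with 1 library a time and was looked at after the values were known. In KASUMI-1 vehicle libraries 8 of 35 members were at least 2-fold lower at 72 h than at 6 h and 0 were higher, where 0.66% of genes were lower and 0.825% higher. In KASUMI-1 LSD1i libraries 7 of 36 were lower and 1, GBP2, was higher, where 0.496% of genes were lower and 1.87% higher. IFIT1, IFIT2, IFIT3, HERC6, ISG15 and IFI44 were lower under both agents, 6 of the 8 and 6 of the 7. IFIT1 at 72 h was at 0.351 of its 6 h level with LSD1i (counting interval 0.305 to 0.403) and 0.376 with vehicle (0.318 to 0.443). For IFI44, a protein of unsettled function, the same ratios were 0.275 (0.195 to 0.381) and 0.227 (0.137 to 0.359). RSAD2 was at 0.775 (0.687 to 0.873) with LSD1i and 0.403 (0.329 to 0.489) with vehicle, and OASL at 0.300 (0.235 to 0.380) and 0.558 (0.452 to 0.685). In both genes the difference between agents at 72 h goes with this difference in time, as the ratios share libraries. In THP-1 LSD1i libraries 2 members, GBP2 and TRIM22, were higher at 72 h than at 24 h (0.876% of genes) and 0 lower (0.717%), and in vehicle libraries IFI6 was lower (0.311%) and 0 were higher (0.515%). The part of the lower depth of the KASUMI-1 vehicle 72 h library was not tested.

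**Figure D5:**
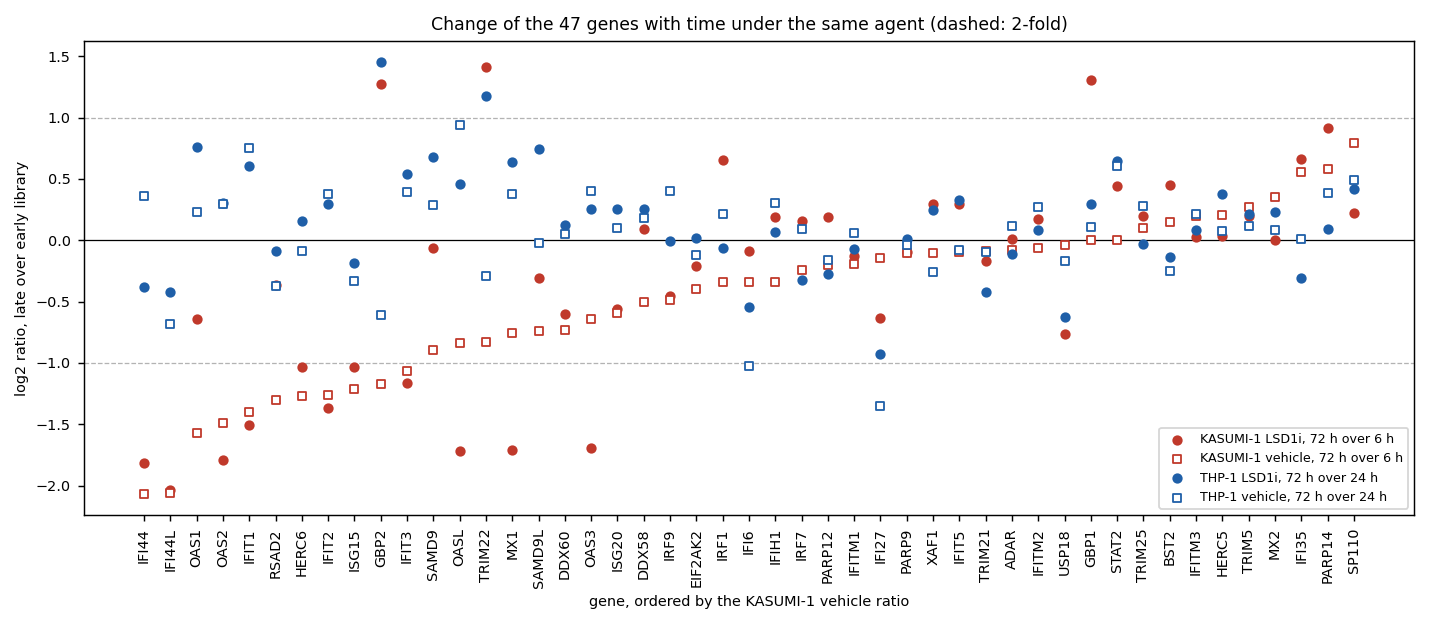
Log2 ratio of the later over the earlier library under the same agent (y axis, prior count of 2) for the 47 genes (x axis, in the order of the KASUMI-1 vehicle ratio), with KASUMI-1 in red, THP-1 in blue, LSD1i as filled circles and vehicle as open squares. Dashed lines mark 2-fold. IFIT1, IFIT2, IFIT3, HERC6, ISG15 and IFI44 are below the lower dashed line in both KASUMI-1 series.

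The interferon genes that were listed were next to absent in the counts. Of the interferon alpha genes the list holds IFNA1, IFNA2, IFNA5, IFNA6, IFNA8 and IFNA13, and others were not looked up. IFNG, IL28A, IL28B and IL29 on the list are not type I interferons. Near-identical interferon alpha genes may be undercounted, as no multi-mapping option was used. Of 14 interferon genes listed 10 had 0 reads in every library, and IFNB1, IFNK, IFNW1 and IL28B had at most 3 reads in any library. IFNB1, the interferon that cells make first, had 1 read over the KASUMI-1 LSD1i libraries and 1 over the vehicle libraries, and 1 and 2 reads in THP-1. None of the 14 could be tested, and at this depth a change in them was not detectable.

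The receptor chains and kinases were expressed in both lines. In KASUMI-1 2 of 11 rose, where 7.02% of all genes did, and in THP-1 4 did, where 6.51% of all genes did, with none lower by edgeR, at an unadjusted p under 0.05 or by DESeq2. IFNAR1 had 87.7 and 79.3 CPM in KASUMI-1 LSD1i libraries against 75.7 and 52.2 CPM in vehicle libraries (0.40 ± 0.14, adjusted p = 0.0644, edgeR), and 103 and 130 CPM against 79.9 and 74.8 CPM in THP-1 (0.59 ± 0.14, adjusted p = 0.00858, edgeR). IFNAR2 rose in KASUMI-1 by 0.43 ± 0.13 (adjusted p = 0.0395, edgeR) and gave 0.23 ± 0.13 in THP-1. IFNGR1, the ligand-binding chain for interferon gamma, rose in both lines, by 0.71 ± 0.13 and 1.01 ± 0.13. IFNGR2 (0.57 ± 0.12) and IL10RB (0.42 ± 0.12) rose in THP-1. The kinases did not pass: JAK1 gave 0.28 ± 0.13 in KASUMI-1 and 0.06 ± 0.13 in THP-1, and TYK2 -0.12 ± 0.14 and 0.41 ± 0.13. STAT3, a transcription factor that the same kinases activate, gave -0.01 ± 0.13 and 0.04 ± 0.13. Without the KASUMI-1 72 h pair IFNAR2 (0.32) and IFNGR1 (0.55) were not called in KASUMI-1, and IFNAR2 was not called without either THP-1 pair (0.42 each), with RLE scaling (0.40) or with DESeq2 (0.40). IFNAR1 was called in KASUMI-1 with no filter on low counts (0.42) and when the KASUMI-1 6 h pair was left out (0.61), as was JAK1 in the second case (0.53). TYK2 was called in THP-1 when either KASUMI-1 pair was left out (0.41 each). Without the THP-1 72 h pair IFNAR1 (0.36), IFNGR2 (0.63) and IL10RB (0.43) were not called in THP-1, and without the 24 h pair IFNGR2 (0.47) and IL10RB (0.37) were not.

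Of 23 sensors and adaptors tested outside the members 3 rose and 2 fell in KASUMI-1, where 7.02% of all genes rose and 5.09% fell, and 4 rose in THP-1, where 6.51% did. IFI16, a nuclear DNA sensor, had 223 and 329 CPM in KASUMI-1 LSD1i libraries against 146 and 178 CPM in vehicle libraries (0.75 ± 0.13, adjusted p = 0.00144, edgeR). In THP-1 IFI16 had 50.7 and 62.3 CPM with LSD1i against 14.6 and 14.9 CPM with vehicle (1.93 ± 0.14, adjusted p = 2.51e-08, edgeR). It rose in both lines, without overlap. TLR3, the endosomal receptor of double-stranded RNA, rose in KASUMI-1 with 27 and 31 reads under LSD1i against 7 and 0 reads under vehicle (2.68 ± 0.64). IRF8, a myeloid transcription factor, rose there by 0.64 ± 0.18. The signalling proteins TRAF3 (-0.54 ± 0.15) and IKBKE (-0.44 ± 0.14) fell in KASUMI-1. TLR8, the endosomal RNA receptor of monocytes, rose in THP-1 on 116 LSD1i and 11 vehicle reads (3.54 ± 0.48). MYD88, the adaptor of most Toll-like receptors, and SAMHD1, a nucleotide hydrolase, rose in THP-1 by 0.59 ± 0.13 and 0.55 ± 0.13. Without the KASUMI-1 72 h pair TLR3 (1.88), IRF8 (0.74), TRAF3 (-0.36) and IKBKE (-0.35) were not called, nor IRF8 when the 6 h pair was left out (0.54). IRF8 (0.63) was not called without the THP-1 24 h pair, and IKBKE (-0.45 each) without either THP-1 pair or with a filter of 1 CPM in 2 libraries (-0.43). TLR8 (2.81) was not called without the THP-1 72 h pair, and MYD88 (0.58 and 0.56) and SAMHD1 (0.50 and 0.56) without the 24 h or the 72 h pair.

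The 11 listed brakes of the pathway, such as SOCS1 and PTPN6, gave no call by edgeR in KASUMI-1 (12.1% of all genes) or in THP-1 (9.36%). Those shares are at the adjusted threshold. At an unadjusted p under 0.05, without a share of all genes, edgeR had 2 higher and 1 lower in KASUMI-1 and 0 in THP-1. DESeq2 called 1 lower in KASUMI-1 and 0 in THP-1.

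Of 43 other interferon-stimulated genes tested 5 rose and 1 fell in each line (11.6% and 2.33%). Of all genes 7.02% rose and 5.09% fell in KASUMI-1, and 6.51% rose and 2.85% fell in THP-1. TNFSF10, the death ligand TRAIL, rose in both, by 0.84 ± 0.20 in KASUMI-1 and 0.87 ± 0.18 in THP-1. TDRD7, a Tudor-domain protein, rose by 0.79 ± 0.19 in KASUMI-1 and fell in THP-1 (-0.83 ± 0.15). TRIM38, an E3 ligase (1.12 ± 0.15), GBP3, another guanylate-binding protein (0.91 ± 0.25), and RNF213, a large E3 ligase (0.42 ± 0.13), rose in KASUMI-1. LY6E, a surface protein that limits virus fusion, fell there (-0.58 ± 0.13). In THP-1 IFI30, a lysosomal thiol reductase (2.74 ± 0.27), SLFN5, a Schlafen protein (1.75 ± 0.25), PSMB9, an immunoproteasome subunit (0.46 ± 0.14), and CASP1, the inflammatory caspase (0.44 ± 0.13), rose. Without the KASUMI-1 72 h pair TNFSF10 (0.47), TDRD7 (0.33), GBP3 (0.57), RNF213 (0.41) and LY6E (-0.40) were not called in KASUMI-1. RNF213 was not called when the 6 h pair was left out (0.43), and GBP3 (0.91 each) and RNF213 (0.41 each) were not without either THP-1 pair. In THP-1 TNFSF10 (0.60) was not called without the 72 h pair and SLFN5 (1.47) without the 24 h pair. TDRD7 (-0.84 and -0.87), PSMB9 (0.60 and 0.29) and CASP1 (0.41 and 0.44) were not called without the 24 h or the 72 h pair. DESeq2 did not call RNF213 (0.39) in KASUMI-1 or PSMB9 (0.46) and CASP1 (0.44) in THP-1. RLE scaling ended the call of RNF213 (0.39), and a filter of 1 CPM in 2 libraries that of PSMB9 (0.46).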

How the data were processed

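The authors deposited raw counts of reads per gene, as whole numbers, for 8 libraries made from 500 ng total RNA each. Per the file headers, featureCounts 1.5.2 counted exons of NCBI36 Ensembl 54 gene models, with no strand or multi-mapping option. The deposited exon length gave RPKM. FastQC 0.10.0, TopHat2 2.0.10, Subread, edgeR and hg18 are named in the submitters' processing notes. Without strand, overlapping and antisense genes cannot be told apart, and near-identical paralogs such as IFITM2 and IFITM3 may be undercounted.

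Libraries were matched as 4 pairs by line and time in the labels. Counts were tested with edgeR 4.0.16 in R 4.3.3 (quasi-likelihood, TMM, filterByExpr at 10 reads), with terms for pair and for LSD1i in either line and 2 residual degrees of freedom, so the test leans on a spread shared across genes. The residual degrees of freedom hold the difference in LSD1i response between the times of each line. Benjamini-Hochberg adjustment ran over all 16060 genes tested (15456 in the vehicle fit). A standard error is the size of the fitted value over the root of its F. Single pairs used exact conditional binomial 95% intervals. The code was tested on simulated counts. Alternatives were DESeq2 1.42.0, RLE scaling, other filters, no pair term and leaving out each pair.

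Members, lists and the naming rule were chosen with earlier results of these data known. Members called in a line or in the difference of response, and STAT2, IRF1, IRF7 and IRF9, are given by library. Other members appear as counts or as examples of high level. In the other lists called genes are named, with IFNB1, IFNAR1, IFNAR2, JAK1, TYK2 and STAT3. Some listed genes are not reported here by name.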

Additional observations from a re-analysis of the deposited data

Results flagged for a closer look

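The responses of 8 genes, 4 of them members, differed between the lines by the test of the difference itself (edgeR's quasi-likelihood test, KASUMI-1 minus THP-1, log2 scale), a test that 5.69% of all genes passed. Among members these were HERC5 at -1.82 ± 0.21 (adjusted p = 5.91e-05), OASL at -1.76 ± 0.37 (0.0103), IFIT1 at -1.06 ± 0.28 (0.034) and STAT2 at 0.74 ± 0.20 (0.0397). Among other genes of the pathway they were IFI16 at -1.18 ± 0.18 (0.0012), IFI30, a lysosomal thiol reductase, at -2.63 ± 0.41 (0.0012), TRIM38 at 1.20 ± 0.20 (0.0024) and TDRD7 at 1.62 ± 0.24 (7.17e-04). IFI30 rose in THP-1, with 99.2 and 63.8 CPM in LSD1i libraries against 26.1 and 4.92 CPM in vehicle libraries, and was between 3.52 and 4.38 CPM in KASUMI-1. TRIM38 had 25.8 and 25.6 CPM in KASUMI-1 LSD1i libraries against 12.6 and 11.1 CPM in vehicle libraries, and 17.0 and 21.9 CPM against 18.0 and 23.1 CPM in THP-1. Without the THP-1 72 h pair IFI16 was at -1.05 and not called, and IFI30 was at -1.81, against -3.58 without the 24 h pair.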

How the results depend on the processing

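The 11 members called in KASUMI-1 were 7 with DESeq2, 13 with RLE scaling and 14 with no filter on low counts, and 2 to 15 without 1 pair. The 12 of THP-1 were 8 with DESeq2 and 4 to 16 without 1 pair. The 4 differences were 2 with DESeq2, 7 with no filter and 1 to 10 without 1 pair. No replicate numbers pair the libraries; the pairing by line and time came from the labels, and with no replicate block 0, 6 and 1 members were called. Over all genes, the 1945 calls of KASUMI-1 were 100 with no block, 306 when its 72 h pair was left out and 1238 when the THP-1 24 h pair was. The 1503 of THP-1 were 990 with DESeq2, 454 with no block, and 628 and 386 when its 24 h or its 72 h pair was left out. The 914 differences were 22 with no block, 1705 when the KASUMI-1 6 h pair was left out, and 178 and 166 when the THP-1 24 h or 72 h pair was. The cause was not tested. GBP1, HERC5, OAS1 and TRIM22 in THP-1 and the HERC5 difference passed under all 9 alternatives. In the vehicle fit IFI44 ranged from -0.043 without the KASUMI-1 6 h vehicle library to 2.09 without the 72 h one. Leaving out a pair leaves 1 pair in that line, assumed to vary like the others.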
